A study of Homo sapiens with 6 samples.

Results

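The genes described here are 9 components of antigen presentation by major histocompatibility complex (MHC) class I: *HLA-B*, *HLA-C*, *HLA-E*, *B2M*, *PSMB9*, *TAP1*, *TAP2*, *TAPBP* and *NLRC5*. They were chosen by name for their role in the pathway, and each symbol was matched through GENCODE to its Ensembl identifier on the primary assembly. All 9 were found among the 58884 genes of the table and all 9 passed the filter on low counts, which left 16059 genes to test. Their RNA was measured in 3 libraries of DLD1 parental cells, a colorectal cancer line that carries a helical domain mutation of *PIK3CA*, and in 3 libraries of DLD1 cells with K477A and R478A knocked into *PIK3R2* (p85β KR-AA). Both groups share the *PIK3CA* mutation and the colon as tissue of origin, and no treatment is given for either. K477 and R478 lie in a basic stretch of p85β that the study describes as a nuclear localization signal, and the comparison asks how gene expression differs when this signal is mutated. The study describes a pair of homozygous knock-in clones, and the labels do not say which clone a library came from. The source names of mutant replicates 2 and 3 give R479A and R480A, whereas title and genotype give R478A for all 3. The labels do not say that replicates were separate cultures, so that p-values measure only the spread between these libraries, which may be technical.

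Nucleated cells cut their proteins into peptides in the proteasome, and the interferon-inducible subunits PSMB8, PSMB9 and PSMB10 replace the constitutive catalytic subunits to form the immunoproteasome. The TAP1 and TAP2 heterodimer pumps peptides into the endoplasmic reticulum, where tapasin (*TAPBP*) holds TAP close to a new class I molecule, a heavy chain (such as HLA-B, HLA-C or the less variable HLA-E) bound to β2-microglobulin (*B2M*), until a peptide of high affinity is loaded. Cytotoxic T cells read the peptides at the cell surface, HLA-E is read mainly by the NKG2A receptor of natural killer cells, and NLRC5 is the transactivator that assembles on class I promoters with the RFX complex, CREB or ATF1 and NF-Y. Polycomb repressive complex 2, which places H3K27me3, is known to repress these genes in some tumors.

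The promoters are shown because the 9 genes are known for shared control elements, and because the direction of the RNA differences was not the same for all of them. The windows hold 250 bases before and 50 bases after a start site of RefSeq (GRCh38.p14), and *HLA-E* and *NLRC5* were not in the table of windows. Capitals mark matches, on either strand, to 4 motifs: GAAANNGAAA, the core of an interferon-stimulated response element (ISRE), CCAAT, the NF-Y box, TGACG, as in the X2 box to which CREB and ATF1 bind, and the NF-kB consensus. Overlapping matches were each counted.
HLA-B, chr6:31357130-31357429, minus strand: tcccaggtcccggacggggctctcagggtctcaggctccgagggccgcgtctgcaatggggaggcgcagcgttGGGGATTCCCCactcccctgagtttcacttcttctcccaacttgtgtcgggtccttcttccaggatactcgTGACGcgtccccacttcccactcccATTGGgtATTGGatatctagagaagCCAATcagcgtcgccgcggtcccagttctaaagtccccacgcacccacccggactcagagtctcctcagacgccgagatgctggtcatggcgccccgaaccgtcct
HLA-C, chr6:31272043-31272342, minus strand: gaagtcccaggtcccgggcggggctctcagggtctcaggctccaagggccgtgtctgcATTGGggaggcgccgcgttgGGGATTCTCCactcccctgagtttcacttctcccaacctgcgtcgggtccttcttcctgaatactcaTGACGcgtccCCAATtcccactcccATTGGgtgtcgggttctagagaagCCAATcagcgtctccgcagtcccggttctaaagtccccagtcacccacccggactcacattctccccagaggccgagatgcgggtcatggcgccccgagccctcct
B2M, chr15:44711267-44711566, plus strand: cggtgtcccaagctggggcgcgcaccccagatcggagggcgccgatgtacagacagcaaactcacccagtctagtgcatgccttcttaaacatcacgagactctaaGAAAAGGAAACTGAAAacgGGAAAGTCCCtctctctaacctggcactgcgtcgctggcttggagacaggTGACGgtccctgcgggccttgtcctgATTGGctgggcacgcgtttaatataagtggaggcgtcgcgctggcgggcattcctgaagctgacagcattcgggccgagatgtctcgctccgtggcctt
TAP1, chr6:32853655-32853954, minus strand: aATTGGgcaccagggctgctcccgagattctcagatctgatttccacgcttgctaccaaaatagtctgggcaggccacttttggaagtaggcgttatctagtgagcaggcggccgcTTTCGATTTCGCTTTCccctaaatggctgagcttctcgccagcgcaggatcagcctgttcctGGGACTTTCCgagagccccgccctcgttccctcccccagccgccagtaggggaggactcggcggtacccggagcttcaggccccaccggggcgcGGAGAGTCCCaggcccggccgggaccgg
TAPBP, chr6:33314029-33314328, minus strand: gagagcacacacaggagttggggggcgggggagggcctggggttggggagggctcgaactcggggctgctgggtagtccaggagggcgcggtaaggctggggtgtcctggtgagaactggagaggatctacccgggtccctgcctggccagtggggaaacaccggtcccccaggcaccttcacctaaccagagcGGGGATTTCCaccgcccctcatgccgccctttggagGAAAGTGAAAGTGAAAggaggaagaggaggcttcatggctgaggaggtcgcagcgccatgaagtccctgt

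The windows of *HLA-B* and *HLA-C* both held TGACG about 100 bases before the start (first base at -106 and -105) and CCAAT at -56. Neither held an exact match to GAAANNGAAA, and looser forms were not searched for, so the element may still be present. The *B2M* window held overlapping GAAANNGAAA matches at -144 and -138, TGACG at -75 and an inverted CCAAT at -49. In the *TAPBP* window the same ISRE-type pair lay close to the start, at -20 and -14, and neither TGACG nor CCAAT was found. The upstream window of *TAP1* held the pair on the opposite strand and shared 13 bases with the window of *PSMB9*, which is transcribed the other way. Of the 7 members with a window, 4 held GAAANNGAAA, 5 CCAAT, 5 TGACG and 5 the NF-kB consensus. Among all 35116 windows the shares were 3.57% for GAAANNGAAA, 34.6% for CCAAT, 24.6% for TGACG and 11.3% for the NF-kB consensus. A match is a description of the letters and not a binding site, and the motifs were chosen after the windows had been read.

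Compared with parental cells, the p85β KR-AA cells did not show a common direction for the 9 genes. *TAPBP* rose, and *B2M* and *NLRC5* were higher with smaller folds, whereas the heavy chain, transporter and *PSMB9* transcripts were lower. Levels are CPM, the counts scaled to the library size after TMM normalization. Log2 fold changes and Benjamini-Hochberg adjusted p-values are from edgeR's quasi-likelihood test over all tested genes. Standard errors (SE) were derived from that test, as the absolute log2 fold change divided by the square root of its F statistic. A gene was called up-regulated or down-regulated at a fold of at least 3 (1.585 on the log2 scale) with an adjusted p under 0.01. By this rule 1 of the 9 genes was up-regulated, where 28.6% of all tested genes were, and 0 were down-regulated, where 17.6% of all tested genes were. DESeq2 called 1 of the 9 down-regulated, *HLA-E*, where it called 3105 of the 19276 genes it tested down-regulated. Without the fold threshold, 3 were higher at an adjusted p under 0.01 (41.6% of all tested genes) and 5 were lower (32.7% of all tested genes), and *HLA-B* did not pass. In TMM-scaled CPM the groups did not overlap for any of the 9 genes, which was also the case for 83.4% of all genes tested. Overlap was not examined with other scalings. The median log2 fold change was -0.62 for the 9 genes and 0.32 for all tested genes.

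These directions depend on the scaling. TMM factors were 0.677 to 0.777 for parental and 1.35 to 1.41 for mutant cells, and scaling by library totals alone raised the median log2 fold change of all tested genes by 0.92, to 1.241. On that scale 6 of the 9 genes had a positive log2 fold change, and 3 (*B2M*, *NLRC5* and *TAPBP*) were called up-regulated, where 43.9% of all tested genes were. A second alternative fitted offsets that remove, within each library, any trend of the counts with gene length and GC content, and 4 of the 9 were then positive. *TAPBP* and *NLRC5* were higher, and *HLA-E* and *TAP2* lower, under TMM, library totals and the offsets. With library totals *TAP2* was only at -0.12 (edgeR adjusted p = 0.61). *HLA-B*, *HLA-C*, *B2M*, *TAP1* and *PSMB9* changed sign under library totals or the offsets. Among the values with changed sign, only those of *HLA-B* had an edgeR adjusted p under 0.01.

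**Figure D1:**
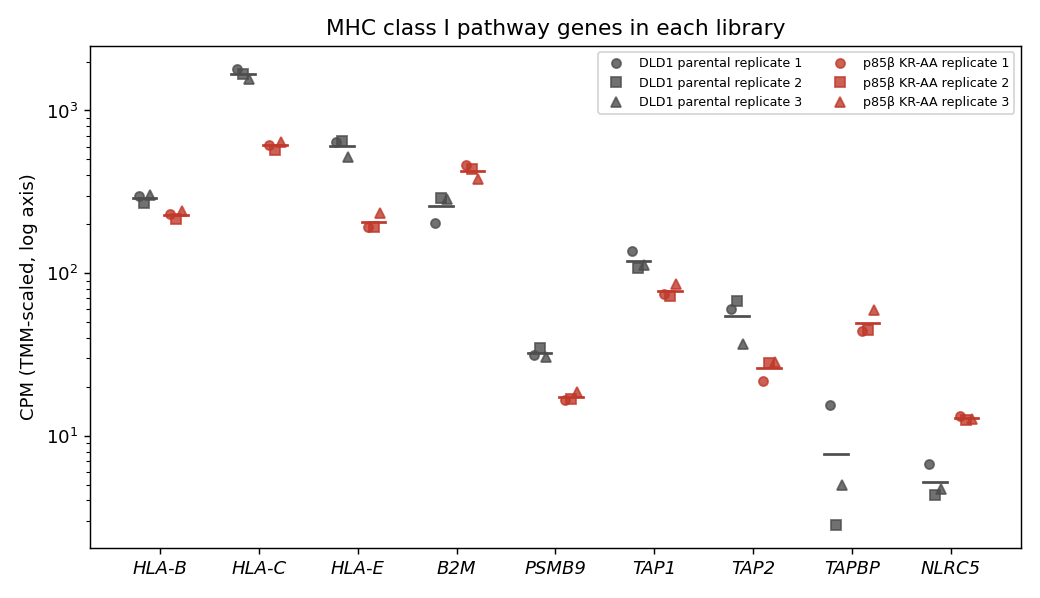
Level of each gene in every library, in TMM-scaled CPM on a log axis, for DLD1 parental (gray) and p85β KR-AA (red) cells, with a line at the mean of each group of 3. On this scale the groups do not overlap for any gene, and *TAPBP* spreads from 2.83 to 15.5 CPM among the parental libraries. With library totals in place of TMM *HLA-B*, *TAP1* and *PSMB9* turn positive in log2 fold change, and of these only *HLA-B* had an edgeR adjusted p under 0.01.

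The totals were 20301932 to 20873475 estimated counts for parental cells and 20301396 to 26712816 for mutant cells, so that 3 counts, taken as the detection limit, were worth 0.0818 to 0.219 CPM. This limit covers counting error only. *PIK3R2* itself had between 169.29 and 524.14 estimated counts in parental and between 124.51 and 503.15 in mutant libraries, with overlapping groups (log2 fold change -0.93, SE 0.42, edgeR adjusted p = 0.0558), and a level does not show the knocked-in bases. The 14 markers of colonic epithelium summed to 57875 to 80005 CPM in parental and 8957 to 10475 CPM in mutant libraries. Most of this sum was *KRT8*, *KRT18* and *KRT19*, with means of 37381, 18441 and 11444 CPM in parental and 4454, 2537 and 1739 CPM in mutant libraries. Of the 13 epithelial markers tested, 3 were up-regulated (*CEACAM5*, *MUC13*, *CDH1*) and 7 down-regulated (28.6% and 17.6% of all tested genes). *KRT8*, *LGALS4* and *KRT18* were lowest in log2 fold change, and *CDX1* had at most 3 counts in every library. The 10 mesenchymal markers summed to 7.65 to 10.3 CPM in parental and 6319 to 7232 CPM in mutant libraries, with *VIM*, *FN1*, *COL3A1*, *DCN* and *LUM* up-regulated and *COL1A2*, *PDGFRA* and *THY1* at 3 counts or fewer in every library. Of 14 immune markers, 10 had 3 counts or fewer in every library, *PTPRC*, *CD3D* and *MS4A1* among them, and the sum was 54.8 to 67.2 CPM against 37.2 to 45.7 CPM. The 4 endothelial markers summed to 1.09 to 3.09 CPM and 1.36 to 1.66 CPM. *VIM* had 0.598 to 0.947 CPM in parental and 1693 to 1828 CPM in mutant libraries, and *FN1* 3.57 to 4.72 CPM and 4602 to 5416 CPM. The labels name DLD1 for both groups, and counts per gene carry no genotype with which the identity of the mutant libraries could be checked, so that each difference between the groups below is one between libraries that also differ in these markers. By TMM the epithelial and mesenchymal sums were far apart, the immune sum was lower in mutant libraries without overlap and the endothelial sums overlapped. *CD68* and *CD14*, the 2 immune markers tested, had log2 fold changes of -0.62 and -0.22 by TMM but 0.30 and 0.71 with library totals. The part of the markers in the results was not tested. In bulk RNA, a different share of cells of a type and a different amount of RNA per cell cannot be told apart.

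The heavy chain transcripts were lower in the mutant cells by TMM, but not to the same degree. *HLA-C* (chromosome 6, 31236526 to 31239907, minus strand, positions here and below from GENCODE 44 lifted to GRCh37) had 1806, 1668 and 1565 CPM in parental and 609.9, 575.4 and 642.9 CPM in mutant libraries. All parental libraries were far above all mutant libraries. The mean was 1680 ± 120.9 against 609.4 ± 33.8 CPM (SD, n = 3). On the log2 scale the fold change was -1.46 (SE 0.12, edgeR adjusted p = 2.2e-07), just under the fold threshold. It was -0.54 with library totals and turned to 0.13 with the offsets (adjusted p = 0.158).

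*HLA-E* (chromosome 6, 30457286 to 30461971, plus strand), which presents peptides from the leader sequences of other class I chains, was at 641.0, 648.3 and 516.2 CPM in parental and 193.3, 191.2 and 233.2 CPM in mutant libraries. Parental replicate 3 was the lowest of its group and mutant replicate 3 the highest of its own, and the groups stayed apart. The log2 fold change was -1.55 (SE 0.14, edgeR adjusted p = 4.6e-07), -0.62 with library totals and -0.77 with the offsets. Without parental replicate 3 it was -1.69 and without mutant replicate 3 -1.64, and *HLA-E* was then called down-regulated.

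*HLA-B* (chromosome 6, 31321649 to 31334844, minus strand) differed least of the 3 by TMM, but most with the offsets. Its level was 297.5, 268.1 and 302.2 CPM in parental and 231.9, 213.7 and 241.0 CPM in mutant libraries, with each mutant library below each parental library. The log2 fold change of -0.34 (SE 0.12, edgeR adjusted p = 0.020) did not pass the threshold, and it was 0.58 with library totals and 0.86 with the offsets. Of the distinct 50-base stretches in its annotated transcripts, 29.6% also occur in other genes, mostly in the overlapping pseudogene *DHFRP2*, which was listed at 0 counts in all libraries. The counts of *HLA-B*, *HLA-C* and *HLA-E* are uncertain in so far as the counting had to divide reads among near-identical class I genes, which share 5.46% of the stretches of *HLA-C* and 5.19% of those of *HLA-E* with some other gene. Summed over the 3 genes, which does not depend on how reads were split among them, the log2 fold change was -1.30 (SE 0.12, edgeR adjusted p = 7.1e-07).

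Within a library the makeup of the heavy chains can be compared without any scaling between libraries. Of the counts per base of deposited gene length over the 3 genes, *HLA-B* took 16.2%, 15.6% and 18.7% in parental libraries, and 31.3%, 30.6% and 30.5% in mutant libraries. The share of *HLA-C* was 67.7% to 68.9% and then 56.9% to 57.7%, and that of *HLA-E* 13.6% to 16.2% and then 11.1% to 12.6%, so that none of the 3 shares overlapped between the groups. The ratio of *HLA-B* to *HLA-C* per base was 0.235, 0.229 and 0.276 in parental and 0.543, 0.530 and 0.535 in mutant libraries. This was a difference of 1.12 on the log2 scale with an exact two-sided permutation p of 0.1 (0.14 after Benjamini-Hochberg adjustment over the 7 ratios computed), and 0.1 is the smallest p that 3 against 3 libraries allow. With the offsets the log2 fold changes of both genes were 0.73 apart.

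*B2M* (chromosome 15, 45003556 to 45011049, plus strand), the light chain shared by all class I molecules, went the other way by TMM. It had 204.6, 288.6 and 283.9 CPM in parental and 460.5, 433.9 and 379.0 CPM in mutant libraries. Parental replicate 1 was lowest, and all mutant libraries were above all parental libraries. Its log2 fold change was 0.71 (SE 0.15, edgeR adjusted p = 0.00081), a mean of 259.0 ± 47.2 against 424.5 ± 41.6 CPM (SD, n = 3). It was 1.64 with library totals, which passed the fold threshold, and -0.20 with the offsets (adjusted p = 0.051).

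The ratio of *B2M* to the sum of *HLA-B* and *HLA-C* per base was 0.0836, 0.128 and 0.130 in parental and 0.446, 0.449 and 0.350 in mutant libraries. The difference of 1.89 on the log2 scale had an exact two-sided permutation p of 0.1 (0.14 after adjustment over the 7 ratios). This ratio is free of the scaling between libraries but not of length and GC content, since with the offsets *B2M* had a lower log2 fold change (-0.20) than both *HLA-B* (0.86) and *HLA-C* (0.13).

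*TAPBP* (chromosome 6, 33267471 to 33282061, minus strand), which encodes the chaperone that couples class I molecules to TAP, was the 1 gene of the 9 to pass both thresholds. It had only 15.5, 2.83 and 4.95 CPM in parental libraries, against 44, 44.6 and 58.9 CPM in mutant libraries. The parental libraries differed among themselves by more than the mutant libraries did in relative terms, with replicate 1 highest, and even that library was below all mutant libraries. The log2 fold change was 2.66 (SE 0.43, edgeR adjusted p = 8.4e-05), above that of 84.7% of all tested genes. It was 3.63 without parental replicate 1 and 2.24 without parental replicate 2, and *TAPBP* was called up-regulated with each library left out, with library totals (3.58) and with the offsets (3.42). Its annotated exons overlap those of a non-coding gene on the opposite strand over 21% of their bases, and as no source states that the counting used strand, reads of the 2 genes cannot be told apart.

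*NLRC5* (chromosome 16, 57023397 to 57117443, plus strand), the class I transactivator, was the least abundant per length. Its level was 6.71, 4.30 and 4.69 CPM in parental and 13.3, 12.5 and 12.7 CPM in mutant libraries. All mutant libraries were above the highest parental library. Its log2 fold change was 1.29 (SE 0.21, edgeR adjusted p = 8.4e-05), under the fold threshold, and it was 2.22 with library totals and 0.80 with the offsets (adjusted p = 0.00041). None of its 50-base stretches occurs in another annotated gene.

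The transporter genes were lower by TMM. *TAP1* (chromosome 6, 32812986 to 32821593, minus strand) had 137.7, 107.4 and 112.6 CPM in parental and 74.1, 72.6 and 85.5 CPM in mutant libraries, without overlap. Its log2 fold change was -0.62 (SE 0.14, edgeR adjusted p = 0.0011). It was 0.30 with library totals (edgeR adjusted p = 0.073) and -0.37 with the offsets. Of its exon bases 14.2% overlap *PSMB8-AS1* on the opposite strand, which took 30.3 to 36.8 estimated counts in parental and 63.0 to 81.9 in mutant libraries.

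*TAP2* (chromosome 6, 32789610 to 32806516, minus strand) was at 59.9, 67.0 and 36.4 CPM in parental and 21.6, 28.2 and 28.5 CPM in mutant libraries. The 3 parental libraries spread widely, with replicate 3 closest to the mutant cells. The log2 fold change of -1.06 (SE 0.21, edgeR adjusted p = 0.00049) was -0.12 with library totals (adjusted p = 0.61). It was -3.0 with the offsets, under which *TAP2* was called down-regulated. *TAP2* is uncertain because a readthrough gene, ENSG00000250264, lies over it on the same strand, shares 18.5% of its 50-base stretches and took between 457.36 and 1083.41 estimated counts per library. Summed with that gene, the log2 fold change was -1.03 (SE 0.13, edgeR adjusted p = 8.5e-06). The ratio of *TAP1* to *TAP2* per base was 4.41, 3.07 and 5.94 in parental and 6.57, 4.95 and 5.75 in mutant libraries, so that the groups overlapped (log2 difference 0.40, exact two-sided permutation p = 0.3). With the offsets the log2 fold changes of both genes were 2.64 apart.

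*PSMB9* (chromosome 6, 32811913 to 32827628, plus strand), the immunoproteasome subunit whose gene lies head to head with *TAP1*, had 31.4, 34.6 and 30.3 CPM in parental and 16.6, 16.9 and 18.5 CPM in mutant libraries. Its log2 fold change was -0.89 (SE 0.15, edgeR adjusted p = 0.00011). It was 0.039 with library totals (edgeR adjusted p = 0.80) and -0.74 with the offsets. The ratio of *TAP1* to *PSMB9* per base was 1.51, 1.07 and 1.28 in parental and 1.53, 1.48 and 1.59 in mutant libraries. The mean log2 ratios differed by 0.27 and the groups overlapped (exact two-sided permutation p = 0.2, where 0.1 is the smallest that 3 against 3 libraries allow).

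**Figure D2:**
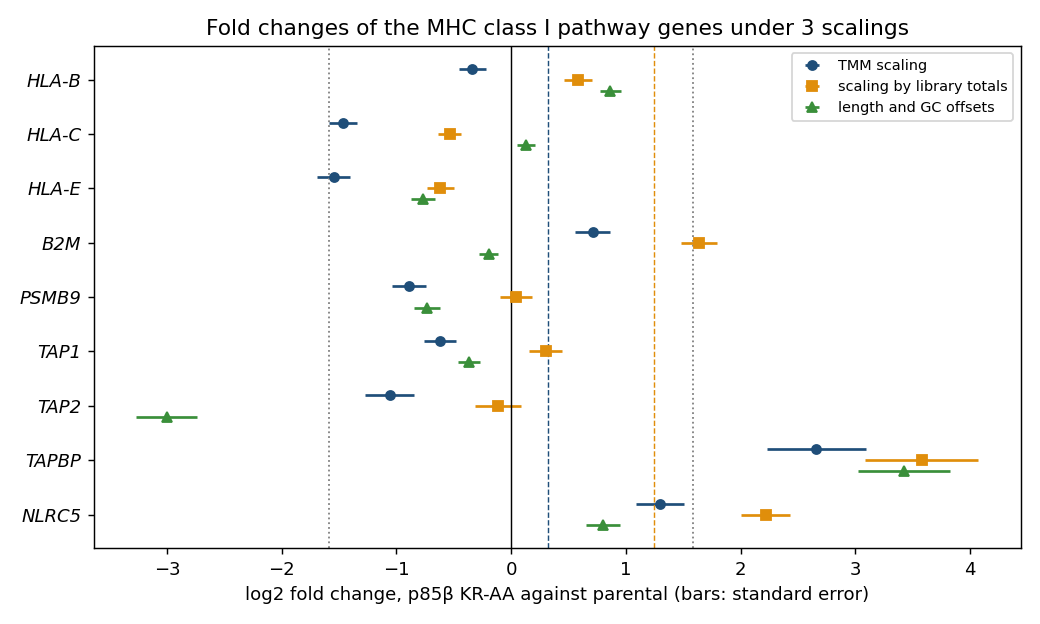
Log2 fold change of each gene in p85β KR-AA against parental cells, with bars for 1 SE, under TMM (circles), library totals (squares) and offsets for length and GC content (triangles). Dashed lines mark the median of all tested genes, 0.32 with TMM and 1.241 with library totals, and dotted lines a fold of 3. *TAPBP* lies between 2.66 and 3.58, *HLA-E* and *TAP2* are negative throughout, and *HLA-B*, *HLA-C*, *B2M*, *TAP1* and *PSMB9* cross 0. With library totals *TAP2* is close to 0, at -0.12.

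The other proteasome genes give *PSMB9* its setting. Of the 5 genes listed for the immunoproteasome and its activator, *PSMB10* was down-regulated, with 93.0 to 128.2 CPM in parental and 17.6 to 19.97 CPM in mutant libraries (log2 fold change -2.50, SE 0.16, edgeR adjusted p = 2.2e-08), and the other 4 were lower at an adjusted p under 0.01 with smaller folds. The log2 fold change of *PSMB10* was -1.56 with library totals and -0.43 with the offsets, both under the fold threshold. Among the other 4 was *PSMB8*, with 103.6 to 116.0 CPM against 42.3 to 51.5 CPM (log2 fold change -1.24). With library totals *PSMB8* (-0.31), *PSME1* (-0.26), *PSME2* (-0.19) and *POMP* (-0.34) did not pass, at edgeR adjusted p-values of 0.034 to 0.17. With the offsets *PSME1* turned to 0.094 (edgeR adjusted p = 0.33) and *PSME2* was at -0.22 (adjusted p = 0.050). *PSMB8* was then at -0.60 and *POMP* at -2.11, past the fold threshold. The 3 constitutive catalytic subunits that they replace were all down-regulated by TMM, where 17.6% of all tested genes were. *PSMB6*, the counterpart of *PSMB9*, had 429.6 to 581.3 CPM in parental and 73.9 to 79.7 CPM in mutant libraries (log2 fold change -2.71, SE 0.14). *PSMB5* and *PSMB7* had log2 fold changes of -2.11 and -2.12. With library totals the same values were -1.77 for *PSMB6*, -1.18 for *PSMB5* and -1.18 for *PSMB7*, so that all 3 kept their sign and *PSMB6* alone stayed past the fold threshold.

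Per base, the ratio of *PSMB9* to *PSMB6* was 0.0530, 0.0482 and 0.0571 in parental and 0.182, 0.183 and 0.188 in mutant libraries, a log2 difference of 1.81 (exact two-sided permutation p = 0.1, 0.14 after adjustment over the 7 ratios). *PSMB6* remained the more abundant of the pair in every library. The ratio of *PSMB8* to *PSMB5* was 0.229 to 0.261 in parental and 0.439 to 0.458 in mutant libraries (log2 difference 0.86), and that of *PSMB10* to *PSMB7* was 0.193 to 0.194 and then 0.139 to 0.155 (log2 difference -0.38), each with the same p. With the offsets the log2 fold changes of the genes in these pairs differed by 0.81, 0.67 and 1.34, the last with the opposite sign to that of the ratio.

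**Figure D3:**
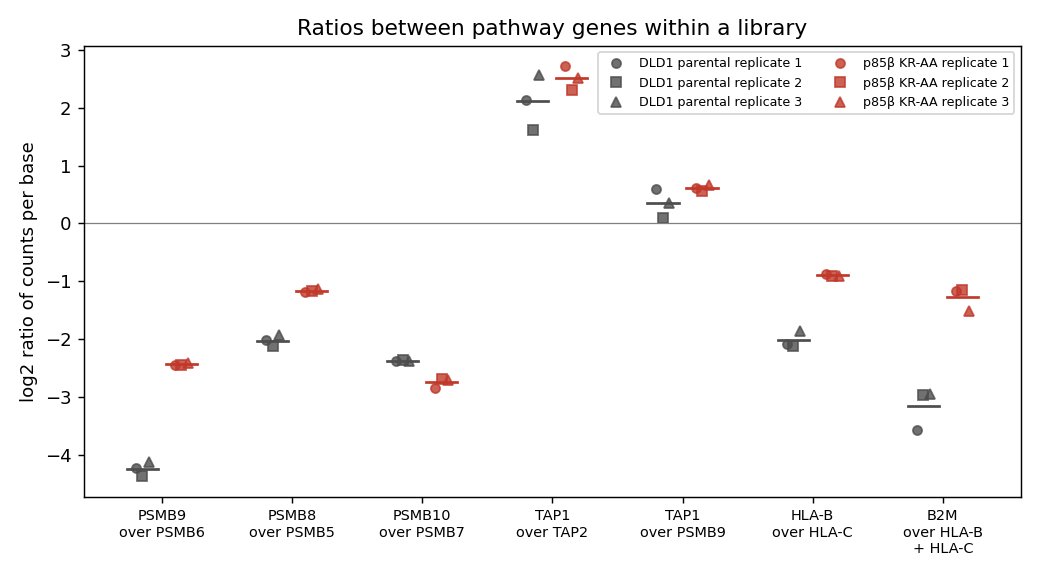
Log2 ratio of counts per base of gene length between pairs of class I pathway genes within each library, for parental (gray) and p85β KR-AA (red) cells, with a line at the group mean. The ratios of *PSMB9* to *PSMB6* and of *B2M* to *HLA-B* plus *HLA-C* differ most between the groups, by 1.81 and 1.89, and *TAP1* over *TAP2* and *TAP1* over *PSMB9* overlap. With offsets for length and GC content *B2M* had a lower log2 fold change than *HLA-B* and *HLA-C*, and the difference for *PSMB10* over *PSMB7* turned positive.

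Compared per base of deposited length, *HLA-C* was the most abundant of the 9 genes in both groups, at 1081 ± 77.8 CPM per kilobase in parental and 392.1 ± 21.7 in mutant cells (SD, n = 3). In parental cells *HLA-B* (265.6 ± 17.0 CPM per kilobase) and *HLA-E* (236.2 ± 29.1) followed and did not differ beyond their spread, then *B2M* (151.9 ± 27.7), *TAP1* (40.3 ± 5.47), *PSMB9* (31.6 ± 2.19), *TAP2* (9.59 ± 2.82), *TAPBP* (4.11 ± 3.58) and *NLRC5* (0.767 ± 0.190). In mutant cells *B2M* (249.0 ± 24.4 CPM per kilobase) stood second, ahead of *HLA-B* (210.1 ± 12.8) and *HLA-E* (80.8 ± 9.28). *TAPBP* (26.1 ± 4.47) and *TAP1* (26.2 ± 2.37) then did not differ beyond their spread, and *PSMB9* (17.0 ± 1.01), *TAP2* (4.6 ± 0.683) and *NLRC5* (1.88 ± 0.0550) came last. The order rests on the deposited lengths, and that of *HLA-B*, 1089 bases, is short beside the 4623 bases of its annotated exons.

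The genes most like a member were those with the smallest root mean square difference of log2 CPM over the 6 libraries, each gene centered on its mean. For *HLA-B* they were *RHOB* (0.0212), *WASH8P* (0.0217) and *CAMK2G* (0.0257). Nearest to *B2M* were *GCH1* (0.0308), *SAT1* (0.0315) and *BPGM* (0.0520), and nearest to *TAP1* were *TMEM79* (0.0381), *PPP6R1* (0.0439) and *PCIF1* (0.0440). The nearest genes had log2 fold changes close to that of the member, as for *HLA-B* (-0.338) with -0.343, -0.350 and -0.325. No member of the class I pathway was among the 3 nearest genes of these 3. With 16059 genes tested, this cannot show whether the pathway genes vary together.

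In the wider pathway, 46 further genes were tested, of which 13 were up-regulated and 5 down-regulated by TMM (28.6% and 17.6% of all tested genes). In TMM-scaled CPM the groups did not overlap for 40 of them, as for 83.4% of all tested genes. With library totals 20 were up-regulated (43.9% of all tested genes) and 0 down-regulated (6.06%), and with the offsets 1 was up-regulated (13.1%) and 3 down-regulated (11.6%).

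Genes that fold and trim class I molecules and peptides included the largest increase among these 46. Of 9 such genes, 5 were up-regulated and 1 was down-regulated by TMM (28.6% and 17.6% of all tested genes). *UGGT1*, which checks glycoprotein folding, rose from 4.08 to 12.7 CPM in the parental libraries to 117 to 122 CPM in the mutant libraries (log2 fold change 3.71, SE 0.29). The peptide trimming enzymes rose as well, *ERAP1* from 3.08 to 4.12 CPM to 25.3 to 28.9 CPM (2.97, SE 0.19) and *ERAP2* from 2.86 to 4.01 CPM to 17.9 to 26.5 CPM (2.82, SE 0.23). Of the lectin chaperones, calnexin (*CANX*) rose from 156.2 to 236.5 CPM to 710.3 to 847.0 CPM (1.94, SE 0.16), and calreticulin (*CALR*), a part of the peptide-loading complex, fell from 2555 to 2989 CPM to 717.3 to 811.6 CPM (-1.87, SE 0.13). With the offsets the log2 fold changes were 1.18 for *UGGT1*, 0.63 for *ERAP1*, 0.44 for *ERAP2*, 0.01 for *CANX* and -0.96 for *CALR*, all under the fold threshold.

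Among 19 regulators of class I genes, 4 were up-regulated and 1 was down-regulated by TMM (28.6% and 17.6% of all tested genes). *IRF1*, an interferon-induced activator of class I promoters, had 27.3 to 37.1 CPM in parental and 20.3 to 24.5 CPM in mutant libraries (log2 fold change -0.60, edgeR adjusted p = 0.0048), with 0.31 for library totals. The 3 subunits of the RFX complex, to which NLRC5 is tethered, differed in direction by TMM. *RFXANK* fell from 89.9 to 124.5 CPM to 18.8 to 19.7 CPM (-2.48, SE 0.15), *RFX5* was higher by 0.46 (adjusted p = 0.0084) and *RFXAP* had -0.19 (adjusted p = 0.52). With library totals *RFXAP* was positive (0.73), *RFX5* was at 1.39 and *RFXANK* was at -1.55, just under the fold threshold. With the offsets all 3 were negative, *RFXANK* at -0.77, *RFXAP* at -1.15 and *RFX5* at -0.076 (adjusted p = 0.53), so that their directions no longer differed and none was called. *CREB1* (1.86) and *ATF1* (1.71), whose products bind the X2 box, and *SUZ12* (2.15), a core subunit of Polycomb repressive complex 2, were up-regulated by TMM, and with the offsets their log2 fold changes were -0.93, 0.33 and -0.01.

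Of 10 interferon receptors, kinases and feedback inhibitors, 4 were up-regulated and 1 down-regulated by TMM (28.6% and 17.6% of all tested genes). The feedback inhibitors parted, with *SOCS3* rising from 14.2 ± 1.61 to 108.5 ± 8.66 CPM (SD, n = 3, log2 fold change 2.93) and *SOCS1* falling from 3.25 ± 0.811 to 1.06 ± 0.149 CPM (-1.61). With the offsets *SOCS3* was at 3.91, and *SOCS1* turned to 0.63. The receptor chain *IFNAR1* rose from 4.26 ± 1.42 to 28.3 ± 3.48 CPM, the kinase *JAK1* from 16.7 ± 4.29 to 92.6 ± 5.62 CPM and *JAK2* from 0.570 ± 0.268 to 3.02 ± 0.758 CPM (SD, n = 3), and with the offsets their log2 fold changes of 0.36, 1.15 and 0.07 were under the fold threshold.

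**Figure D4:**
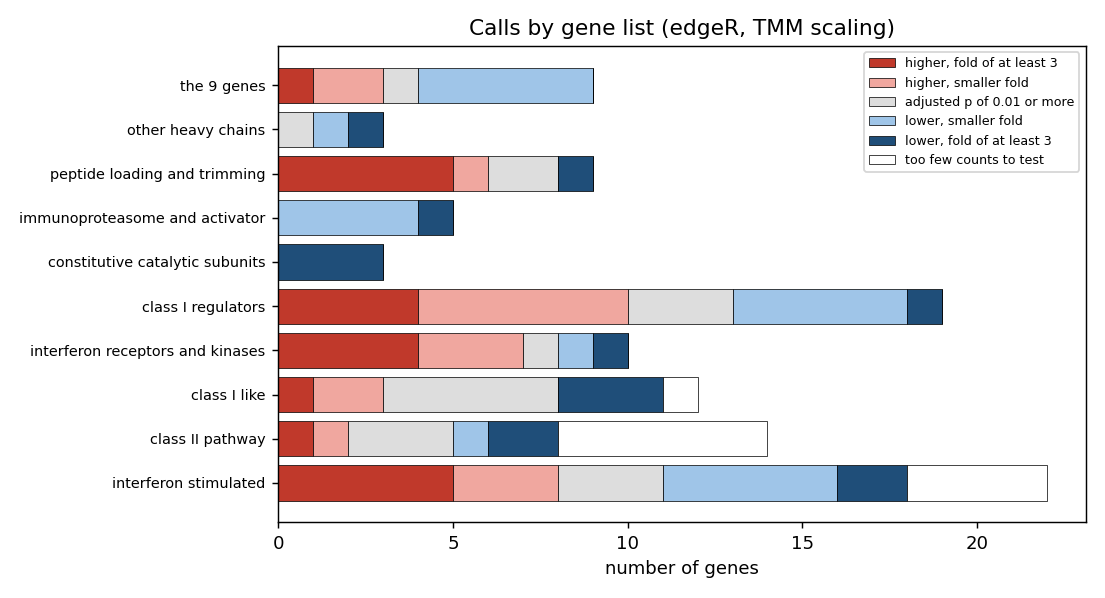
Number of genes in each list that were higher or lower in p85β KR-AA cells (edgeR, TMM), split by a fold of at least 3, a smaller fold at an adjusted p under 0.01, an adjusted p of 0.01 or more, and too few counts to test. Of the 9 genes 1 was up-regulated, and all 3 constitutive catalytic subunits were down-regulated, where 28.6% and 17.6% of all tested genes were. With library totals 20 of the 46 other pathway genes were called up and 0 down.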

How the data were processed

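RNA-seq of 3 DLD1 parental and 3 p85β KR-AA libraries (Trizol extraction, TruSeq kit, total RNA) was analysed. The methods of the study describe read trimming with SeqPrep and Sickle and FPKM values. The submitters' processing notes name HISAT2 2.1.0, RSEM 1.3.1, DESeq2 1.24.0 and hg18, without saying which step each served. The table deposited by the authors holds unnormalized estimated counts for each Ensembl gene and a gene length. Which annotation they used is not given in the sources used here, and GRCh37 positions are from GENCODE 44. Of 58884 genes, 56745 had an annotation. Estimated counts were rounded to whole numbers.

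Groups followed the labels. All 6 libraries were compared in R 4.3.3 with edgeR 4.0.16 (TMM, quasi-likelihood F test without covariates, Benjamini-Hochberg adjustment), after filterByExpr at 10 counts and a total of 15, with the fold and p thresholds of the study's methods. Ratios within a library used counts per base and an exact two-sided permutation test in SciPy 1.17.1. The alternatives were DESeq2 1.42.0, library totals, no filter, at least 10 counts in every library, a replicate block, each library left out, a fold of 2 with an adjusted p under 0.05, and offsets for length and GC content (robust splines with 5 degrees of freedom per library). Sums over *TAP2* and its readthrough gene and over 3 heavy chains, and the offsets for ratios, were added after the data were seen. Named genes were all members, up to 5 called genes of each list by absolute log2 fold change, and *PSMB8*, *PSMB10*, the constitutive subunits, the RFX subunits, *IRF1* and *CIITA* whatever their values. Some genes that this rule names are not reported here. Further marker genes, *ISG15*, *PSME1*, *PSME2* and *POMP* were named after their values were seen. The code was tested on simulated data. Members and lists were chosen with earlier results of these data known. The totals of the libraries set the precision given in the report. ChIP-seq was not analysed here.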

Additional observations from a re-analysis of the deposited data

How the results depend on the processing

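With each library left out, 4404 to 4783 genes were up-regulated and 2774 to 2992 down-regulated, 1 of the 9 genes was up-regulated and 0 to 1 down-regulated (*HLA-E*, without parental replicate 3 or mutant replicate 3). With the replicate block there were 4626 and 2827 genes, and *TAPBP* was again the one member called (log2 fold change 2.93). The labels do not say whether same-numbered libraries were paired. Their deviations correlated at -0.14, 0.12 and -0.045, which cannot exclude a weak shared batch, and the block changed no call of a member. Library totals gave 7052 genes up and 973 down, 3 members up, and 20 other pathway genes up and 0 down. Log2 fold changes turned positive for *HLA-B* (0.58), *TAP1* (0.30) and *PSMB9* (0.039), with edgeR adjusted p-values of 0.0012, 0.073 and 0.80. The offsets for length and GC content gave 2086 genes up and 1840 down, 1 member down (*TAP2*), 1 other pathway gene up and 3 down, and turned *HLA-B* (0.86), *HLA-C* (0.13) and *B2M* (-0.20). With the offsets the log2 differences were 0.81 for *PSMB9* over *PSMB6*, 0.67 for *PSMB8* over *PSMB5*, 1.34 for *PSMB10* over *PSMB7*, 2.64 for *TAP1* over *TAP2* and 0.73 for *HLA-B* over *HLA-C*. At least 10 counts in every library left 2898 genes up. DESeq2 called 1 member down (*HLA-E*), and 3105 of the 19276 genes it tested. At a fold of 2 and an adjusted p under 0.05, 4289 of the 16059 tested genes were down. Among them were 3 members (*HLA-C*, *HLA-E*, *TAP2*) and 10 of the 46 other pathway genes. By the same rule 6074 of the tested genes were up, among them 2 members (*TAPBP*, *NLRC5*) and 15 of the 46 other pathway genes. The cause of these differences was not tested.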

Other observations

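Class I-like genes that are not loaded by the TAP pathway were also measured. Of 12, 11 were tested with edgeR, 1 was up-regulated and 3 were down-regulated by TMM (28.6% and 17.6% of all tested genes). *MICA* and *MICB*, stress-induced ligands of the NKG2D receptor of natural killer cells, fell from 74.0 to 108.7 CPM to 22.3 to 25.03 CPM (log2 fold change -1.99, SE 0.16) and from 46.8 to 60.4 CPM to 15.7 to 18.9 CPM (-1.60, SE 0.16). Both stayed negative with library totals (-1.05 and -0.68) and with the offsets for length and GC content (-0.84 and -1.44), under the fold threshold in each case. *FCGRT*, which encodes the neonatal Fc receptor, fell from 1.42 to 1.79 CPM to 0.244 to 0.327 CPM, a log2 fold change of -2.50 that was -0.99 with the offsets (edgeR adjusted p = 0.020) and no longer called. Another NKG2D ligand, *RAET1E*, was up-regulated at a low level, with 0.0901 to 0.335 CPM in parental and 0.649 to 1.76 CPM in mutant libraries.

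Of 14 genes of the class II pathway, 8 had enough counts to test. *HLA-DRB1* fell from 19.1 to 23.3 CPM to 6.32 to 6.50 CPM (log2 fold change -1.71) and *HLA-DMA*, which loads class II molecules, from 10.2 to 12.7 CPM to 2.09 to 3.50 CPM (-2.02). *CTSS*, a protease of the class II pathway, was up-regulated at a low level, from 0.0617 to 0.266 CPM to 0.696 to 0.911 CPM. With the offsets the calls of *HLA-DMA* (-0.79) and *CTSS* (0.74, edgeR adjusted p = 0.32) were lost, and with library totals *HLA-DRB1* (-0.78) and *HLA-DMA* (-1.10) were under the fold threshold. *CIITA*, the class II counterpart of *NLRC5*, had 0.569 to 1.84 CPM in parental and 2.76 to 3.45 CPM in mutant libraries (1.21, edgeR adjusted p = 0.0056), under the fold threshold.

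Of 22 interferon-stimulated genes, which include *PSMB9*, 18 were tested, with 5 up-regulated and 2 down-regulated by TMM (28.6% and 17.6% of all tested genes). *ISG15* fell from 847.6 ± 167.0 CPM in parental to 56.4 ± 4.50 CPM in mutant libraries (SD, n = 3, log2 fold change -3.91). Its log2 fold change was -2.97 with library totals and -1.69 with the offsets. *CD274*, which encodes PD-L1, rose from 0.874 to 1.66 CPM to 18.8 to 20.8 CPM (log2 fold change 4.07, SE 0.25), and its log2 fold change was 4.99 with library totals and 2.37 with the offsets. *BST2* fell from 2.34 to 4.95 CPM to 0.0348 to 0.327 CPM. *IFI44L*, listed at 0 in all parental libraries, reached 1.09 to 2.40 CPM in mutant libraries. *IFI44* and *OAS2* were at or near the detection limit in parental libraries, with at most 0.185 and 0.0617 CPM, and reached 2.26 to 4.21 CPM and 0.453 to 0.765 CPM. Of 9 class I pseudogenes 4 were tested, and *HLA-L* (2.23) and *HLA-V* (2.73) were up-regulated on the log2 scale by TMM. Their counts are uncertain, since reads may be shared with the class I genes.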
